A study of Cucumis sativus with 12 samples.

Results

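The deposited annotation gives the Swiss-Prot name Transcription factor SPATULA to 2 of the 24345 cucumber genes in the table, Csa2G356640 and Csa6G491000. The rule that takes them uses that name and no measured value, but they were singled out with earlier results of these data known. Both carry the helix-loop-helix DNA-binding domain, which the annotation gives to 108 genes in all. RNA was sequenced from the stigma and style of cucumber (Cucumis sativus) flowers at anthesis, when they open, in 12 libraries. These were 3 biological replicates of each of 4 genotypes: wild type (WT), Csspt-/- (here Csspt), Csalc-/- (here Csalc) and CssptCsalc-/-, the double mutant (here Csspt Csalc). Neither the cultivar, nor the kind of mutation, nor the number of independent mutant lines was given in the sources used here. The annotation named 0 genes ALCATRAZ and 0 genes INDEHISCENT, so neither SPATULA-named gene is assigned to a mutant line here. A mutated gene can keep its transcript, so its level does not check the genotype labels.

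SPATULA is a basic helix-loop-helix (bHLH) transcription factor that in Arabidopsis acts in the carpel margins, where the stigma, the style and the transmitting tract, the path of the pollen tubes, arise. ALCATRAZ, its close relative, is known there for the layer along which the ripe fruit opens, and the genes have overlapping roles. SPATULA binds DNA as a dimer, also with HECATE bHLH factors, and is tied to gibberellin through DELLA proteins and to auxin through genes of auxin transport.

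Library totals ran from 32155631 to 37986853 counts. Csalc replicate 3 stood apart: its log2 CPM (counts scaled to library size) correlated with the other libraries at 0.810 to 0.856, against 0.974 to 0.985 within groups and 0.927 to 0.975 between groups for the rest. Dispersion was estimated over all libraries together, at a biological coefficient of variation, common to all genes, of 0.363 for 12 libraries and 0.193 for 11 when Csalc replicate 3 was left out. The results on both SPATULA-named genes are therefore given with and without it. Of the tissue markers, the summed FPKM (fragments scaled to gene length and library size) of 4 stigma-specific STIG1-like genes, 3 of them detected in any library, was 8.34 to 11.9 in WT, 1.09 to 3.86 in Csspt, 1.36 to 3.51 in Csalc and 0.157 to 0.793 in Csspt Csalc. The carpel markers, 2 genes named AGAMOUS, summed to 53.0 to 60.4 FPKM in WT, 64.7 to 72.5 in Csspt, 56.4 to 77.3 in Csalc and 81.9 to 91.3 in Csspt Csalc. In Csalc replicate 3, 4 pollen-specific genes summed to 117.7 FPKM, against 10.6 to 21.9 in the other libraries, 43 genes of green tissue to 557.3, against 2033 to 4236, and 6 clock genes to 432.7, against 626.5 to 861.2.

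Csa2G356640 was a well expressed bHLH gene whose level was lower in every library that carries Csalc-/-. It had 21.0, 20.1 and 19.6 FPKM in WT replicates 1, 2 and 3, from 1703, 1491 and 1433 counts. In Csspt it had 20.9, 19.98 and 18.9 FPKM, from 1555, 1534 and 1345 counts. These 6 libraries lay within a narrow band, and the groups overlapped.

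In Csalc, Csa2G356640 had 11.8, 12.2 and 5.87 FPKM, from 868, 956 and 426 counts. In Csspt Csalc it had 13.2, 12.1 and 8.44 FPKM, from 1107, 994 and 661 counts. The 6 libraries with Csalc-/- all lay below the 6 without it, and the Csalc and Csspt Csalc libraries overlapped with each other. The lowest value of all was that of Csalc replicate 3, the library that stood apart. In bulk tissue, fewer cells of a type and less RNA per cell cannot be told apart.

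The mean level of Csa2G356640 was 20.2 ± 0.699 FPKM in WT, 19.9 ± 0.997 in Csspt, 11.2 ± 2.48 in Csspt Csalc and 9.97 ± 3.56 in Csalc (SD, n = 3). That is 98.5% of the WT mean in Csspt, 55.5% in Csspt Csalc and 49.3% in Csalc, or 59.4% in Csalc without replicate 3. In this order WT and Csspt, and Csspt Csalc and Csalc, did not differ beyond their spread, while the step between the pairs was larger than the spread within any group. The level ranked 15 to 20 among the 108 bHLH-domain genes in the WT and Csspt libraries, 22 to 25 in Csalc replicates 1 and 2 and in Csspt Csalc, and 37 in Csalc replicate 3.

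**Figure D1:**
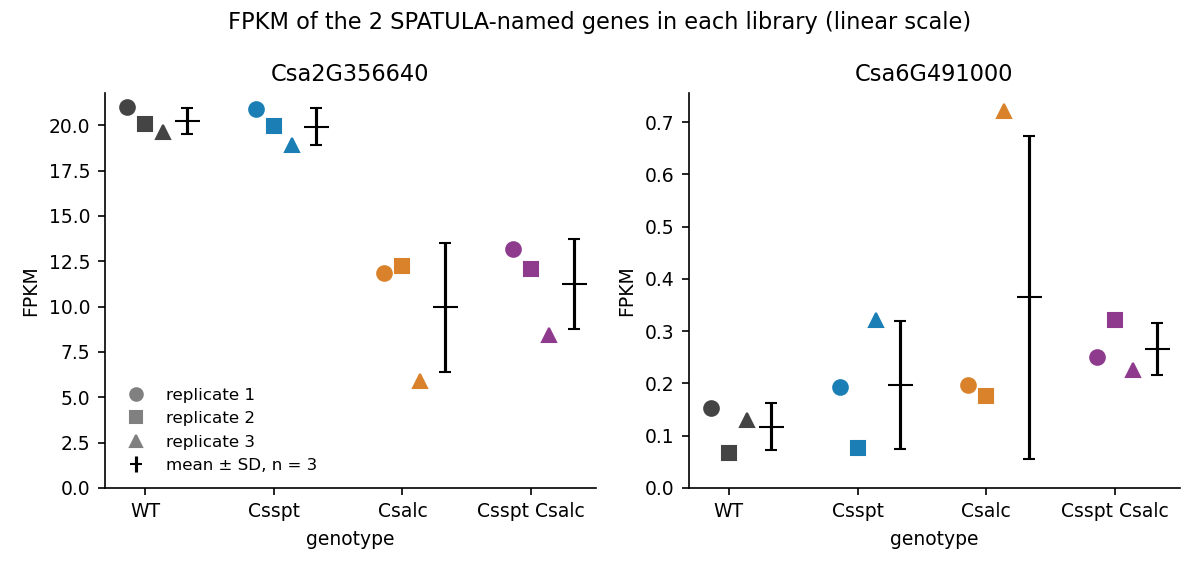
Each point is 1 library, with FPKM on a linear vertical axis from 0 and the 4 genotypes along the horizontal axis, and the black bars give the mean ± SD of 3 libraries. For Csa2G356640 the WT and Csspt libraries sit between 18.9 and 21.0 FPKM and the Csalc and Csspt Csalc libraries between 5.87 and 13.2, while Csa6G491000 stays at or below 0.722 FPKM.

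Csa6G491000 was near the limit of detection in every genotype. It had 9, 4 and 7 counts in WT, 10, 4 and 16 in Csspt, 10, 10 and 36 in Csalc and 15, 18 and 12 in Csspt Csalc. The value of 36 counts, in Csalc replicate 3, was the highest, and the other 11 libraries had 4 to 18. The Csalc and Csspt Csalc libraries lay above all WT libraries, in 2 of the 3 Csalc libraries by as little as 1 count, and Csspt overlapped with every other group.

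Summed over 3 libraries, Csa6G491000 had 20 counts in WT, with an exact 95% Poisson interval of 12.2 to 30.9, and 45 in Csspt Csalc, with an interval of 32.8 to 60.2. Such intervals cover counting error only. As CPM of the summed library totals, it had 0.196 in WT (interval 0.120 to 0.303) and 0.412 in Csspt Csalc (0.300 to 0.551). Csspt had 0.299 (0.202 to 0.426) and Csalc 0.561 (0.424 to 0.728). Without replicate 3, Csalc had 20 counts in 2 libraries, or 0.299 CPM (0.182 to 0.461). The Csalc level was thus the highest of the 4 genotypes only with that library. In FPKM the gene had 0.153, 0.0664 and 0.131 in WT and 0.2503, 0.322 and 0.226 in Csspt Csalc. Among the 108 bHLH-domain genes it ranked 61 to 75 in the 12 libraries. Per length, Csa2G356640 stood at 137 to 302 times the FPKM of Csa6G491000 in WT, 58.8 to 259 times in Csspt, 37.4 to 52.7 times in Csspt Csalc and 8.13 to 69.6 times in Csalc, whose replicate 3 gave the lowest ratio. The denominators rest on few counts, so these ratios are imprecise.

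The first question for each gene is whether a mutant differed from WT. By edgeR's quasi-likelihood test across all genes that passed the filter on low counts, with Benjamini-Hochberg adjustment and a threshold of 0.05, 0 of the 2 genes were called in any mutant against WT with 12 libraries. The background of calls was small there: 0.00531% of 18850 genes higher and 0.0531% lower in Csspt, 0.159% higher and 0.626% lower in Csalc, and 3.77% higher and 3.41% lower in Csspt Csalc. With Csalc replicate 3 left out it was 1.99% of 19060 genes higher and 2.73% lower in Csspt, 1.79% higher and 2.57% lower in Csalc, and 19.2% higher and 16.8% lower in Csspt Csalc.

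In Csspt against WT the log2 fold change of Csa2G356640 was -0.09 ± 0.31 (SE; unadjusted p = 0.787, adjusted p = 0.981), and -0.09 ± 0.13 without Csalc replicate 3 (adjusted p = 0.720). A p that misses the threshold does not show that the genotypes are alike, but the smaller error bounds the difference more closely.

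In Csalc against WT the log2 fold change of Csa2G356640 was -1.11 ± 0.31 with an unadjusted p of 0.00479 and an adjusted p of 0.135, which misses the threshold. Leaving out Csalc replicate 3, it fell by 0.78 ± 0.15, with an adjusted p of 0.0176. The 2 remaining Csalc libraries, at 11.8 and 12.2 FPKM, both lay below the lowest WT library at 19.6. The call by edgeR thus depends on that library, the lowest of its group, whose omission makes both the difference and its error smaller. It also depends on the test, since DESeq2 called the difference with all 12 libraries, at -1.12 (adjusted p = 0.0207).

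In Csspt Csalc against WT the log2 fold change of Csa2G356640 was -0.97 ± 0.31 by edgeR, with an unadjusted p of 0.0106 and an adjusted p of 0.0887, while DESeq2 called -0.98 (adjusted p = 0.0293). Without Csalc replicate 3, which is in neither group, it fell by 0.97 ± 0.13, with an adjusted p of 4.46e-04. The difference was the same and its error was smaller. In the authors' deposited table the log2 fold change of Csa2G356640 was -0.95 with an FDR of 5.83e-08 in Csspt Csalc, -0.95 with an FDR of 0.170 in Csalc and -0.09 with an FDR of 0.611 in Csspt, each against WT, and no value stood there for Csa6G491000.

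A second question is whether either mutation changed Csa2G356640 when the other was present. Csspt Csalc against Csspt gave a log2 fold change of -0.88 ± 0.31 (adjusted p = 0.262; 0.361% of genes called), and a fall of 0.88 ± 0.13 without Csalc replicate 3 (adjusted p = 0.00323; 14.4% called). Csspt Csalc against Csalc gave 0.15 ± 0.31 (adjusted p = 0.869; 0.711% called), and -0.20 ± 0.14 without Csalc replicate 3 (adjusted p = 0.414; 11.2% called), so its sign turned on that library. Csspt against Csalc gave 1.03 ± 0.31 (unadjusted p = 0.00757, adjusted p = 0.320; 0.0637% called), and 0.69 ± 0.15 without it (adjusted p = 0.0660; 0.498% called). The adjusted p-values in this paragraph come from edgeR over all genes tested.

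The departure from additivity, the difference between the Csalc effect with and without Csspt-/-, was 0.23 ± 0.44 for Csa2G356640 on the log2 scale (unadjusted p = 0.605 and adjusted p = 0.89997 by edgeR). It was -0.10 ± 0.19 without Csalc replicate 3 (adjusted p = 0.851). This test called 0% of all genes with 12 libraries, where 0 genes passed by edgeR and 58 by DESeq2, and 0.0262% without Csalc replicate 3. For these data the effect of Csalc-/- on Csa2G356640 could not be shown to depend on Csspt.

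Averages over backgrounds, and permutation tests of them, were planned for Csa2G356640 only and are not given for Csa6G491000. Averaged over both Csspt backgrounds, Csa2G356640 fell by 1.00 ± 0.22 on the log2 scale with Csalc-/-, by edgeR with an adjusted p of 0.0389, where 3.44% of 18850 genes were called. Leaving out Csalc replicate 3, it fell by 0.83 ± 0.10, with an adjusted p of 6.06e-04, where 17.3% of 19060 genes were called. Leaving out any of the 9 WT, Csspt or Csspt Csalc libraries kept the direction but ended the call, at adjusted p = 0.0712 to 0.103, while leaving out any Csalc library kept it. An exact two-sided permutation test that shuffles libraries within each Csspt background gave p = 0.005 over 400 arrangements, and p = 0.005 over 200 without Csalc replicate 3, the smallest p either allows. Within 1 background, 3 libraries against 3 cannot go below an exact p of 0.1.

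Averaged over both Csalc backgrounds, the change of Csa2G356640 with Csspt-/- was 0.03 ± 0.22 (edgeR adjusted p = 0.981; 1.93% of genes called). It was -0.14 ± 0.10 without Csalc replicate 3 (adjusted p = 0.323; 18.6% called). The exact permutation p, with libraries shuffled within each Csalc background, was 0.965 with 12 libraries and 0.175 with 11.

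For Csa6G491000 the log2 fold change against WT was 0.57 ± 0.63 in Csspt (edgeR adjusted p = 0.935), 1.28 ± 0.62 in Csalc (adjusted p = 0.236) and 0.95 ± 0.62 in Csspt Csalc (adjusted p = 0.381). Its WT libraries had 9, 4 and 7 counts, all under the filter's minimum count of 10. The gene thus passed the filter through mutant libraries, which makes its higher values in the mutants weak. Without Csalc replicate 3, with its 36 counts, the Csalc value was 0.56 ± 0.61 (adjusted p = 0.677), and that of Csspt Csalc 0.94 ± 0.54 (adjusted p = 0.198). Between mutants, 0 contrasts were called for this gene. Csspt Csalc against Csspt gave 0.38 ± 0.60, Csspt Csalc against Csalc -0.32 ± 0.58, or 0.38 ± 0.58 without Csalc replicate 3, and Csspt against Csalc -0.70 ± 0.60, or 0.00 ± 0.62 without it. With an SE near 0.6 on the log2 scale, a change of the size seen for Csa2G356640 would be hard to call for Csa6G491000. The biological coefficient of variation of Csa6G491000 was 0.453 with 12 libraries and 0.317 without Csalc replicate 3. How far its SE rests on low counts or on spread between libraries was not tested.

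**Figure D2:**
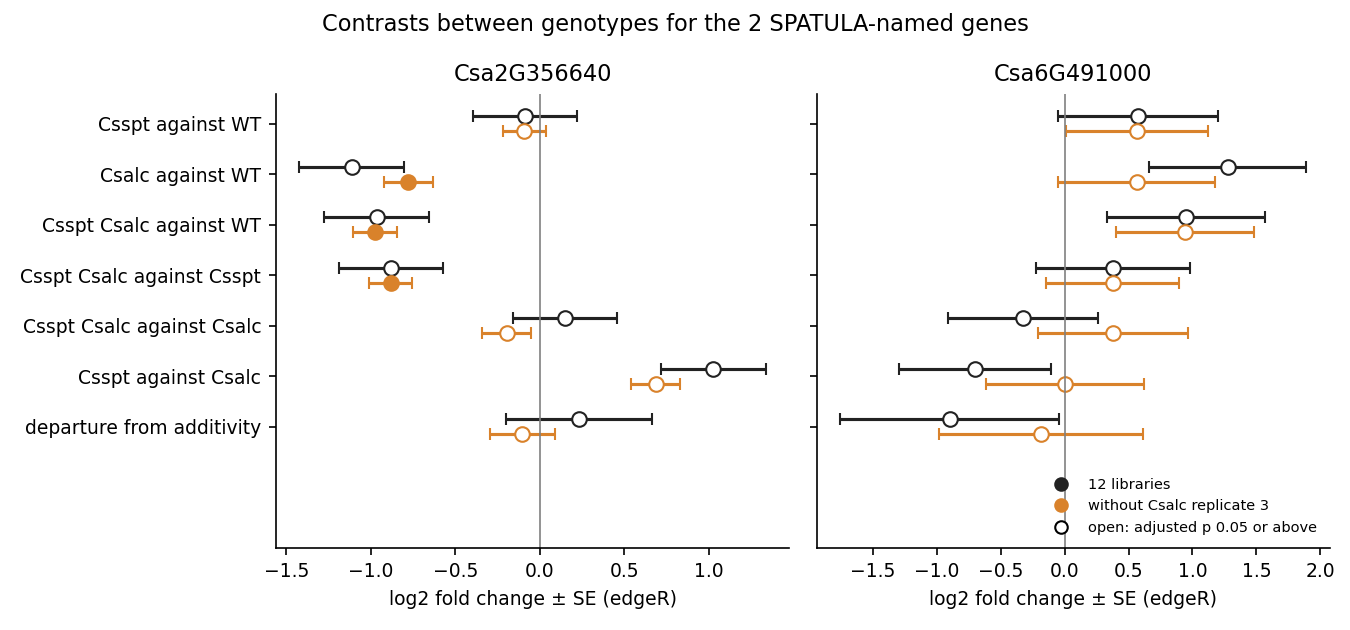
The horizontal axis is the log2 fold change with its SE from edgeR, for 7 contrasts listed on the vertical axis, with black marks for the fit of 12 libraries and orange marks for the fit without Csalc replicate 3. Filled marks passed the adjusted p threshold of 0.05; for Csa2G356640 the values of Csalc and Csspt Csalc against WT and of Csspt Csalc against Csspt are filled in orange only, at -0.78, -0.97 and -0.88, and all marks of Csa6G491000 are open.

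Markers moved along with these groups, and their part in the level of Csa2G356640 was not tested. The STIG1-like sum was lower than in WT in Csspt, at 1.09 to 3.86 FPKM, and in Csalc, at 1.36 to 3.51. In the same groups Csa2G356640 had 18.9 to 20.9 FPKM in Csspt and 5.87 to 12.2 in Csalc. Xylem markers summed to 16.9 to 20.1 FPKM in WT, 17.3 to 31.8 in Csspt, 18.0 to 24.0 in Csalc and 44.1 to 51.3 in Csspt Csalc. Green tissue markers summed to 2033 to 2283 FPKM in WT, 2155 to 2814 in Csspt and 3356 to 4236 in Csspt Csalc. In Csalc they summed to 2891 and 2916 FPKM in replicates 1 and 2, above every WT and Csspt library, and to 557.3 in replicate 3, below all others. The AGAMOUS sum was also higher in every Csspt Csalc library, at 81.9 FPKM or more, than in any other.

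The SPATULA-related list held 14 other genes: HECATE-type (HEC), phytochrome-interacting (PIF), UNE10 and BEE 3 bHLH genes, of which 8 passed the filter on low counts. PIF proteins bind light-activated phytochrome, and in Arabidopsis BEE and HECATE genes act in the transmitting tract. In Csalc against WT 0 rose and 1 fell, and in Csspt Csalc 0 rose and 2 fell. Without Csalc replicate 3 the counts were 0 up and 4 down in Csalc, 1 up and 3 down in Csspt Csalc and 0 up and 2 down in Csspt, where 12 libraries gave 0 of either. Over all genes 0.159% rose and 0.626% fell in Csalc and 3.77% and 3.41% in Csspt Csalc, or 1.79% and 2.57%, and 19.2% and 16.8%, without that library. For Csspt the shares without it were 1.99% and 2.73%. The median log2 fold change of the 8 genes was -0.11 in Csalc and -0.20 in Csspt Csalc, beside 0.06 and 0.03 over all genes, and -0.68 and -0.21 without Csalc replicate 3, beside 0.02 and 0.03.

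Csa7G333400, named PIF1, had 13.9, 18.1 and 15.0 FPKM in WT, 10.6, 7.25 and 7.23 in Csspt, 5.74, 5.86 and 8.27 in Csalc and 5.20, 4.32 and 3.70 in Csspt Csalc. All 9 mutant libraries lay below the WT libraries. It fell by 1.41 ± 0.18 on the log2 scale in Csalc (edgeR adjusted p = 0.00958) and by 1.94 ± 0.19 in Csspt Csalc (adjusted p = 6.32e-04), and its value in Csspt was -0.97 ± 0.18 (adjusted p = 0.120). Unlike for Csa2G356640, the Csspt libraries were thus also below WT, by an amount that passed only without Csalc replicate 3 (adjusted p = 0.0150).

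Csa1G024150, named BEE 3 and the most highly expressed bHLH-domain gene in WT by FPKM, had 282.9, 311.4 and 312.2 FPKM in WT. It had 105.9, 68.9 and 64.0 FPKM in Csspt Csalc, where it fell by 2.04 ± 0.26 (edgeR adjusted p = 0.00205). In Csspt it had 196.9, 159.6 and 154.7 FPKM, all below WT, a log2 fold change of -0.89 ± 0.25 (adjusted p = 0.321) that passed at -0.90 ± 0.19 without Csalc replicate 3 (adjusted p = 0.0267). In Csalc it had 121.8, 88.7 and 220.2 FPKM, a log2 fold change of -1.28 ± 0.25 that missed the threshold (adjusted p = 0.0518) and passed at -1.55 ± 0.22 without replicate 3 (adjusted p = 0.00472).

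Csa6G483450, named HEC3, was the HECATE-type gene expressed in this tissue, at 34.0 to 48.0 FPKM in WT. In Csalc it had 14.5, 9.47 and 91.2 FPKM, so replicate 3 was the highest library of all and replicates 1 and 2 the lowest. Its log2 fold change there was -0.46 ± 0.63 (edgeR adjusted p = 0.656), and it fell by 1.85 ± 0.38 without replicate 3 (adjusted p = 0.0231). In Csspt Csalc it was -0.47 ± 0.63 (adjusted p = 0.685). The other HECATE-type genes, 2 named HEC1 and 1 named HEC2, were listed at 0.159 FPKM or less in every library. Csa2G035330, named PHYTOCHROME INTERACTING FACTOR-LIKE 15, had 4.27 and 4.85 FPKM in Csalc replicates 1 and 2 and 24.9 in replicate 3, with 8.59 to 9.13 in WT. It was called only without that library, falling by 0.98 ± 0.13 in Csalc and by 0.73 ± 0.12 in Csspt Csalc (edgeR adjusted p = 0.00419 and 0.00114). Csa1G039000, named PIF7, was called as higher in Csspt Csalc without that library, at 0.74 ± 0.23 (adjusted p = 0.0293), and was at 0.75 ± 0.25 with it (adjusted p = 0.0969). Another gene named BEE 3 (Csa3G282490) had log2 fold changes of 0.70, 0.33 and 1.01 in Csspt, Csalc and Csspt Csalc with 12 libraries. Another named PIF1 (Csa3G622450) had 0.78, 0.27 and 0.71, and PIF4 (Csa4G615240) had 0.01, -0.28 and 0.06. None of these was called in either fit.

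**Figure D3:**
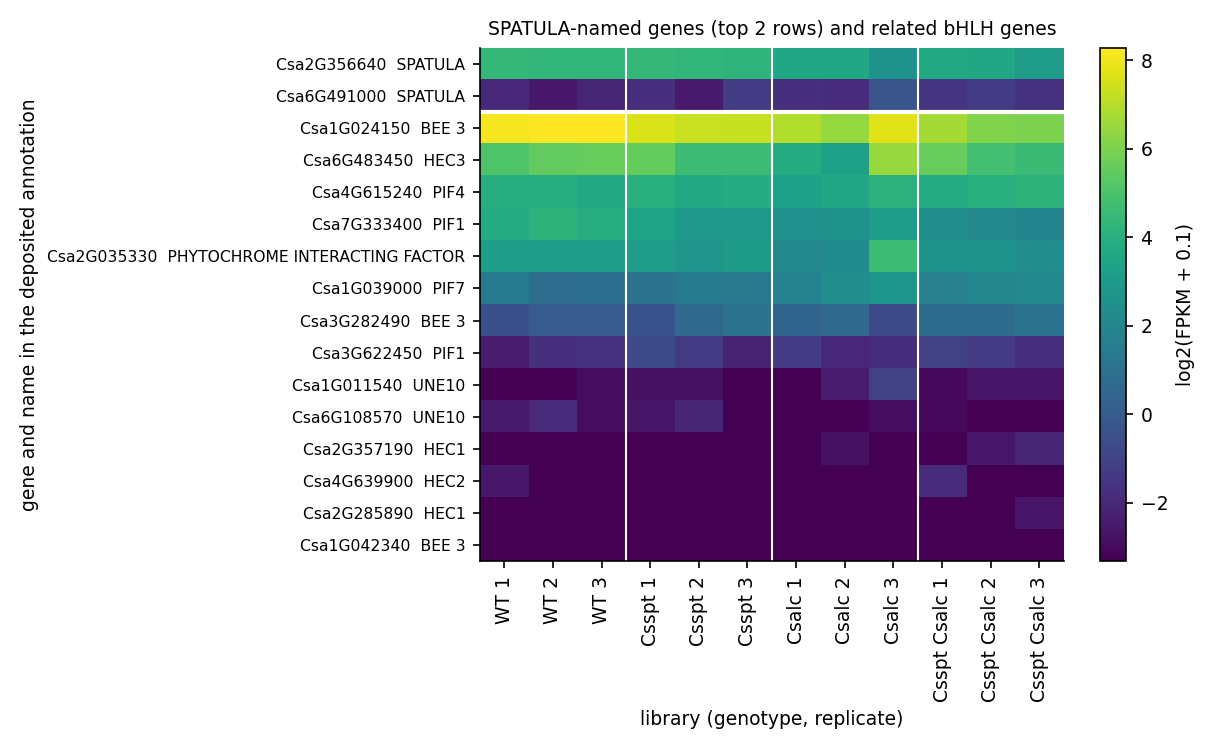
Colour gives log2(FPKM + 0.1) in each of 12 libraries along the horizontal axis, for both SPATULA-named genes in the top rows and the 14 related bHLH genes under them, in order of their mean level. Csa2G356640 is darker in the 6 libraries with Csalc-/-, and Csalc replicate 3 is brighter for HEC3, at 91.2 FPKM, and for Csa2G035330, at 24.9 FPKM.

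Over all 108 genes with the helix-loop-helix domain, 70 passed the filter on low counts, Csa2G356640 and Csa6G491000 among them. With Csalc-/- averaged over both backgrounds 2 of the 70 rose and 3 fell, 1 of the latter being Csa2G356640, and without Csalc replicate 3 it was 6 and 9. Over all genes 3.44% were called in either direction, and 17.3% without that library, so the 15 of 70 called there are near the background. Their median change was 0.20, beside 0.04 over all genes, and 0.12 beside 0.01 without that library.

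The DELLA and gibberellin list held 29 genes, 13 of them tested, or 14 without Csalc replicate 3. In Csalc 0 were called, and in Csspt Csalc 1 rose and 0 fell, or 2 and 3 without that library. The latter 5 of 14 stand beside 19.2% of all genes higher and 16.8% lower in Csspt Csalc, a share near the background. The gene that rose, Csa4G075200, is named gibberellin 2-beta-dioxygenase 1, an enzyme type that inactivates gibberellins. It had 0.819, 0.728 and 0.237 FPKM in Csspt Csalc and 0.0308 to 0.118 in WT, a rise of 2.93 ± 0.76 (edgeR adjusted p = 0.0451). These values are near the limit of detection, so the size of the rise is imprecise. A gene so low in WT can pass the filter on low counts through the Csspt Csalc libraries alone, which makes the call weak. The 3 DELLA-named genes that were tested had log2 fold changes of -0.01 to 0.71 in Csspt Csalc and -0.45 to 1.66 in Csalc, none called. The Csalc range rests on replicate 3: without it DELLA protein GAI (Csa1G408720) went from 1.66 ± 0.66 to 0.31 ± 0.41, DELLA protein 1 from 0.78 to 0.06 and GAIP-B (Csa5G569350) from -0.45 to -0.12. Without Csalc replicate 3, DELLA protein 1 (Csa5G421370) passed in Csspt Csalc at 0.70 ± 0.23 (adjusted p = 0.0364). The median of the list was 0.31 in Csalc and 0.30 in Csspt Csalc, beside 0.06 and 0.03 over all genes, and 0.26 and 0.14, beside 0.02 and 0.03, without that library.

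The list of carpel, style and fruit regulators held 56 genes, 44 of them tested, or 46 without Csalc replicate 3. In Csspt 1 rose and 1 fell, in Csalc 0 rose and 1 fell, and in Csspt Csalc 6 rose and 4 fell, or 3 and 1, 0 and 2, and 10 and 9 without that library. With 12 libraries 0.00531% of all genes rose and 0.0531% fell in Csspt, 0.159% and 0.626% in Csalc, and 3.77% and 3.41% in Csspt Csalc. With 11 it was 1.99% and 2.73%, 1.79% and 2.57%, and 19.2% and 16.8%, in that order. The 19 of 46 called in Csspt Csalc with 11 libraries are near the background. The 6 up and 4 down of 44 with 12 libraries are larger shares than over all genes, and no set test was run. Csa3G810580, named WIP2 after a zinc finger protein that Arabidopsis needs for its transmitting tract, fell in all 3 mutants, by 1.89 ± 0.23 in Csspt, 1.57 ± 0.23 in Csalc and 2.86 ± 0.24 in Csspt Csalc (edgeR adjusted p = 0.0319, 0.0125 and 2.55e-04). Csa1G467100, named AGAMOUS, a MADS-box factor of stamen and carpel identity, had 3.31, 2.21 and 2.68 FPKM in WT and 12.9, 10.8 and 15.6 in Csspt Csalc, and rose by 2.14 ± 0.26 (adjusted p = 0.00168). BEL1-like homeodomain protein 8 (Csa1G118890) rose by 1.36 ± 0.16 and BEL1-like homeodomain protein 2 (Csa2G287110) by 1.86 ± 0.28 in Csspt Csalc (adjusted p = 0.00168 and 0.00490). In Csspt the former also rose, by 1.16 ± 0.16 (adjusted p = 0.0481), and the latter was at 1.41 ± 0.28 (adjusted p = 0.138) and passed without Csalc replicate 3 (adjusted p = 0.0166). The median of the list was -0.03 in Csalc and -0.09 in Csspt Csalc, beside 0.06 and 0.03 over all genes, and -0.0040 and -0.04, beside 0.02 and 0.03, without that library.

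The list of auxin transport and synthesis held 27 genes, 14 of them tested, or 17 without Csalc replicate 3. In Csspt 0 were called, in Csalc 0 rose and 1 fell, and in Csspt Csalc 1 rose and 3 fell. Over all genes 0.159% rose and 0.626% fell in Csalc, and 3.77% and 3.41% in Csspt Csalc. The 1 up and 3 down of 14 in Csspt Csalc are larger shares than these, and no set test was run. Without that library it was 1 and 1 in Csspt, 0 and 3 in Csalc, and 1 and 6 in Csspt Csalc. The shares over all genes were then 1.99% higher and 2.73% lower, 1.79% and 2.57%, and 19.2% and 16.8%, in that order. By direction, the 6 of 17 that fell in Csspt Csalc in this fit are a larger share than the 16.8% over all genes. The 1 that rose is a smaller share than the 19.2%. Only with both directions pooled are the 7 of 17 near the background, and no set test was run here either. Auxin efflux carrier component 2 (Csa1G427480), 1 of the PIN carriers that move auxin out of cells, had 9.78, 10.8 and 7.85 FPKM in WT, 2.06, 1.91 and 2.73 in Csspt, 0.928, 0.809 and 3.59 in Csalc and 0.620, 0.339 and 0.177 in Csspt Csalc. It fell by 2.68 ± 0.51 in Csalc (edgeR adjusted p = 0.0456) and by 4.74 ± 0.57 in Csspt Csalc (adjusted p = 0.00168). All 3 Csspt libraries also lay below WT, at a log2 fold change of -2.15 ± 0.50 (adjusted p = 0.199) that passed without Csalc replicate 3 (adjusted p = 0.00558). Components 1 (Csa1G042820) and 3 (Csa5G576590) fell by 2.24 ± 0.34 and 1.47 ± 0.34 in Csspt Csalc, and component 8 (Csa3G827360) rose by 0.68 ± 0.18 (adjusted p = 0.00508, 0.0300 and 0.0460). Without Csalc replicate 3, component 8 also passed in Csspt, at 0.64 ± 0.12 (adjusted p = 0.0193), and component 3 in Csalc, at -1.13 ± 0.28 (adjusted p = 0.0472). PINOID (Csa1G537400), a kinase that sets the side of the cell on which PIN carriers sit, had 17.1 FPKM in Csalc replicate 3 and 1.75 to 6.09 elsewhere. It was called only without that library, falling by 1.16 ± 0.21 in Csalc and 1.40 ± 0.18 in Csspt Csalc (adjusted p = 0.0137 and 3.84e-04). The median of the list was 0.22 in Csalc and -0.37 in Csspt Csalc, beside 0.06 and 0.03 over all genes, and -0.57 and 0.03, beside 0.02 and 0.03, without that library.

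The genes most alike to Csa2G356640 in pattern were taken by Pearson's r of log2 CPM over the libraries, among 9897 named genes with a mean of at least 2 FPKM. The points share libraries and their scaling, and r is given as a description. Over 12 libraries the 8 highest r ran from 0.961 to 0.979, 110 genes exceeded 0.9 and the median of all was 0.108. The first was Csa4G187820, named vacuolar cationic amino acid transporter 2, with r = 0.979, or 0.954 over 11 libraries. Others were a probable GABA transporter 2 (Csa4G051440), HEADING DATE REPRESSOR 1 (Csa7G430820), the peptide and nitrate transporter family member NPF8.3 (Csa5G106020), the E3 ubiquitin ligase SPL2 (Csa7G450490), the amino acid transporter AVT1C (Csa6G406020), an aluminum-activated malate transporter 4 (Csa5G608530) and the C2-domain protein CAR10 (Csa5G030450).

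Csa4G187820 had 35.6, 46.8 and 34.7 FPKM in WT and 42.96, 39.96 and 36.2 in Csspt. It had 25.5, 28.0 and 13.6 FPKM in Csalc and 29.2, 25.8 and 19.4 in Csspt Csalc. As for Csa2G356640, the 6 libraries with Csalc-/- lay below the other 6, and Csalc replicate 3 was the lowest. Its log2 fold changes were -0.90 ± 0.31 in Csalc and -0.77 ± 0.31 in Csspt Csalc (edgeR adjusted p = 0.156 and 0.162), and -0.57 ± 0.17 and -0.78 ± 0.15 without that library (adjusted p = 0.0945 and 0.00303). The other 7 had log2 fold changes of -0.88 to -0.41 in Csalc with 12 libraries, beside the -1.11 of Csa2G356640, and like it none was called. Without Csalc replicate 3, 4 of these 7 were called in Csalc (Csa7G430820, Csa5G106020, Csa6G406020 and Csa5G608530) and 7 of 7 in Csspt Csalc. In this fit Csa2G356640 was called in both, and over all genes 2.57% were lower in Csalc and 16.8% in Csspt Csalc. Csa4G187820 and these 7 were chosen by their r to Csa2G356640 over the same libraries. That they fell and were called along with it follows largely from this choice and is no separate evidence.

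Over the 11 libraries without Csalc replicate 3, among 9647 genes, the 8 highest r ran from 0.941 to 0.961, 42 genes exceeded 0.9 and the median was 0.0386. Only Csa4G187820 and HEADING DATE REPRESSOR 1 were in both sets of 8. The 11-library set opened with newGene_1858 and newGene_1861, a pair with the same cytochrome P450 name (CYP71AN24), at r = 0.961 and 0.956, which had r = 0.494 and 0.435 over 12 libraries. Reads may be shared between such copies, so their separate values are uncertain. Cucumis_sativus_newGene_1858 had 18.6, 26.2 and 16.6 FPKM in WT, 1.54 and 1.83 in Csalc replicates 1 and 2, and 16.4 in replicate 3, a library where Csa2G356640 was at its lowest. The others were SHI RELATED SEQUENCE 1 (Csa6G504650), named after a family of style regulators, a DeSI-like protein (Csa2G361480), a receptor-like kinase (Csa7G431970) and HIRA (Csa6G152320), a histone chaperone.

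**Figure D4:**
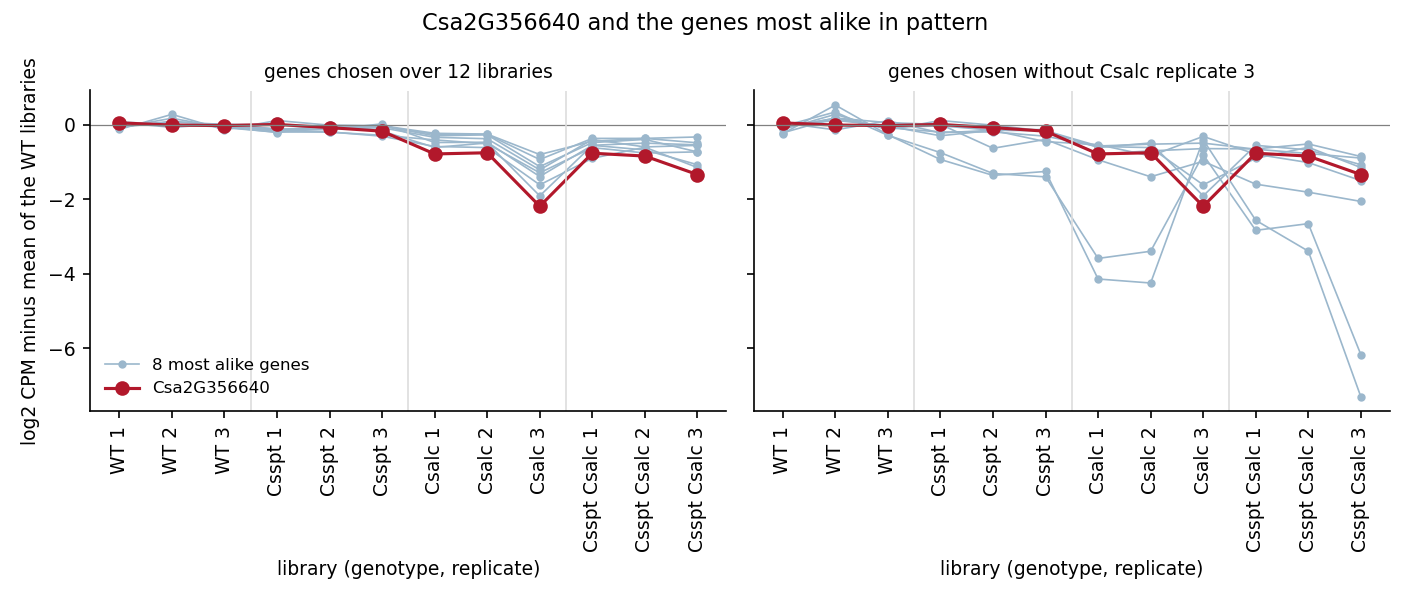
The vertical axis is log2 CPM minus the mean of the WT libraries for each of 12 libraries along the horizontal axis, with Csa2G356640 in red and the 8 genes most alike to it in blue, chosen over 12 libraries on the left (r of 0.961 to 0.979) and over 11 on the right (r of 0.941 to 0.961). On the left all lines dip in Csalc replicate 3, while on the right several rise there as Csa2G356640 falls to 5.87 FPKM.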

How the data were processed

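The authors' deposited table gives, per the file headers, read counts, FPKM values normalized to gene length and library size, and fold changes with FDR values of the authors' own comparisons, for 24345 genes. HISAT2, HISAT and DESeq2 are named in the submitters' processing notes. Neither versions, nor genome build, annotation and counter, nor whether counting used strand, was given in the sources used here. The libraries were made from total RNA with a NEBNext Ultra kit, per the labels. The DM columns were taken to be the double mutant. The members and gene lists were chosen with earlier results of these data known.

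The count test was edgeR 4.0.16 (R 4.3.3) after filterByExpr with a minimum count of 10, with TMM factors, glmQLFit and glmQLFTest on 12 libraries with no block, adjusted p threshold 0.05. SE is the fold change over the root of F. Scripts were tested on simulated data. Limma 3.58.1 on log2(FPKM + 1), + 0.1 and + 0.01, DESeq2 1.42.0, filters, scalings, a replicate block and each library left out were alternatives. Exact permutation tests ran in Python 3.11.15. Genes named are both members, the 8 with the highest r to Csa2G356640 over 12 and over 11 libraries (on log2 CPM, prior count 2), and up to 4 called members per list in Csalc or Csspt Csalc against WT by smallest p, with HECATE-type and DELLA genes by range; other genes of the SPATULA-related list, and the order of values within it, were described after their values were seen. HECATE genes were matched by the spelling HEC. No replicates were merged: every pair differed beyond sampling noise (lowest chi-square per degree of freedom 13.6). The edgeR p-values set a difference between groups against the spread between these libraries, estimated over all genotypes, and cannot speak for other mutant lines. Poisson intervals cover counting error only. The RefSeq table matched 0 IDs. Names are those of the deposited annotation, and coordinates and sequences were not used here.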

Additional observations from a re-analysis of the deposited data

How the results depend on the processing

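For Csa2G356640, 9 alternatives other than leaving out a library kept the Csalc-/- average called, at -1.06 to -0.90 (adjusted p = 9.12e-04 to 0.0429), and leaving out each library in turn gave -1.11 to -0.83. In Csalc against WT, DESeq2 called -1.12 (adjusted p = 0.0207), leaving out each library gave -1.33 to -0.78, and adjusted p ran from 0.0176 to 0.480 over all alternatives. In Csspt Csalc against WT, DESeq2 called -0.98 (adjusted p = 0.0293) and a fit of the compared groups alone -0.96 (adjusted p = 0.00264), leaving out each library gave -1.08 to -0.82, and adjusted p ran from 4.46e-04 to 0.236. In Csspt Csalc against Csspt the compared groups alone called -0.88 (adjusted p = 0.0236), and leaving out each library gave -0.99 to -0.72. Signs turned when a library was left out in Csspt Csalc against Csalc (-0.20 to 0.36), the departure from additivity (-0.10 to 0.45) and the Csspt-/- average (-0.14 to 0.14), and for Csa6G491000 in Csspt Csalc against Csspt (-0.0135 to 0.91), Csspt Csalc against Csalc (-0.59 to 0.38) and Csspt against Csalc (-1.23 to 0.00146); none of these was called, and the cause was not tested. With the stricter minimum count of 50, Csa6G491000 was not tested. Deviations from the group means correlated weakly between same-numbered libraries (r of -0.252 to 0.208). In Csalc these deviations are dominated by replicate 3, so weak r cannot exclude a shared batch. The labels do not say what the numbers mark. With a replicate block the Csalc-/- average of Csa2G356640 was -1.06 (adjusted p = 0.0396), Csalc against WT -1.20 and Csspt Csalc against WT -1.00219, with no member's call changed. Counts of called genes moved far more: Csspt against WT had 11 with edgeR, 303 with DESeq2, 1219 with the compared groups alone, 3 with the replicate block and 0 to 900 with a library left out; Csalc against WT 148, 1477, 2, 75 and 33 to 1271; Csspt Csalc against WT 1353, 2837, 6638, 922 and 433 to 6875; the Csalc-/- average 649, 2641 by DESeq2, 294 and 203 to 3295. With no scaling factors the median of all genes moved to 0.23 in Csalc and 0.14 in Csspt Csalc against WT, where Csa2G356640 was at -1.01 and -0.85. Of the 8 genes most alike over 12 libraries, 7 stayed with log2(FPKM + 1) and 2 with Spearman's rho. Csa6G491000 had only 4 to 36 counts a library, so its values are imprecise in every setting.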
